A study of Homo sapiens with 12 samples.

Results

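The genes described are 7 of the 60649 in the count tables: the metallothionein genes MT1E, MT1F, MT1G, MT1X and MT2A, the zinc-sensing transcription factor gene MTF1, and the zinc exporter gene SLC30A1. They were chosen by name, as genes of the cell's response to zinc, and not by a cut on measured values. RNA was sequenced from spheroids of SBC3, an established human small cell lung cancer cell line. There were 4 groups of 3 libraries: control (whether with a vehicle is not stated), spheroids given teriflunomide, spheroids given lurbinectedin, and spheroids given the 2 drugs together (here the combination). Teriflunomide inhibits dihydroorotate dehydrogenase, a mitochondrial enzyme of pyrimidine synthesis, and lurbinectedin binds DNA and blocks transcription. The study's title concerns synergy of teriflunomide with chemotherapy. Doses and exposure times are not in the labels, nor do the labels say that the libraries of a group came from separate cultures, so the p-values measure the spread between these libraries, which may be technical.

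Metallothioneins are small cysteine-rich proteins that bind zinc and copper and buffer them in the cell. When free zinc rises, MTF1 binds to metal response elements, short DNA motifs in the promoters of metallothionein genes and of SLC30A1, and raises their transcription. SLC30A1 lies in the plasma membrane and moves zinc out of the cell, while proteins of the SLC39 family bring zinc into the cytosol. Metallothionein genes also respond to glucocorticoids and to oxidative stress, so their RNA is not a measure of zinc alone.

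The metal response element cores TGCACNC and TGCGCNC were looked for on both strands in the 250 bases before the annotated start, in RefSeq promoters of build GRCh38.p14. The table held a promoter for 4 of the 7 genes, MT2A, MT1X, SLC30A1 and MTF1. The 3 windows with a match are shown because they hold letters of the motif that MTF1 is known to bind; they run 5′ to 3′ on the gene's strand, end at the base before the start, and have the matches in capitals. MT2A is at chr16:56608334-56608583 on the plus strand, MT1X at chr16:56682220-56682469 on the plus strand, and SLC30A1 at chr1:211579162-211579411 on the minus strand.
MT2A: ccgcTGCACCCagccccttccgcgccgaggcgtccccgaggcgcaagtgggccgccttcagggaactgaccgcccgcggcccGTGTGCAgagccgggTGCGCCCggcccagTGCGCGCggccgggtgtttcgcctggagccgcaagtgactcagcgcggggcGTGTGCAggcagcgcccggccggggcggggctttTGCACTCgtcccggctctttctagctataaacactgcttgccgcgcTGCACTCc
MT1X: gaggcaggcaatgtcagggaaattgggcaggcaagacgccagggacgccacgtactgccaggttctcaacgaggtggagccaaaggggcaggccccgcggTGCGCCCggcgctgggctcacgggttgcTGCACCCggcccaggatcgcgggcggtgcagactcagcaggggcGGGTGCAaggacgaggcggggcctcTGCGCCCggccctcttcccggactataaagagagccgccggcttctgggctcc
SLC30A1: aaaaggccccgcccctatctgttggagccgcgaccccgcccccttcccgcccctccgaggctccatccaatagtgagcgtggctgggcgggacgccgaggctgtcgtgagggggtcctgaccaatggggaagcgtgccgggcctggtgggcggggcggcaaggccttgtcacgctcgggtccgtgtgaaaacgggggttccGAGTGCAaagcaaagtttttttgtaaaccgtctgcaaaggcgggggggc
MT2A held 7 matches, 5 on the gene's strand and 2 on the other. MT1X held 4 matches, 3 on the gene's strand and 1 on the other. SLC30A1 held 1 match, on the other strand, at bases -49 to -43 from the start. MTF1 held 0 matches in its window, which says only that these letters are not there. Of 35116 promoters searched in the same way, 24.8% held at least 1 match, 0.37% at least 4 and 0.031% at least 7, so the 1 match of SLC30A1 is a common count. Of 20 other SLC30 and SLC39 genes with a promoter in the table, 9 held at least 1 match in any of their promoters. Among them were SLC30A2 with 3, SLC30A3 with 2, and SLC30A4 and SLC30A6 with 1 each. Some of these genes had several promoters, whereas the 24.8% is per promoter, so the 2 shares are not alike. The share of G and C was 73.2% for MT2A, 70.0% for MT1X, 66.4% for SLC30A1 and 70.0% for MTF1, beside 57.2% over all promoters. Its part in the numbers of matches was not tested. No matches overlapped each other, and no exon of the annotation used for the counts lay in these windows.

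**Figure D1:**
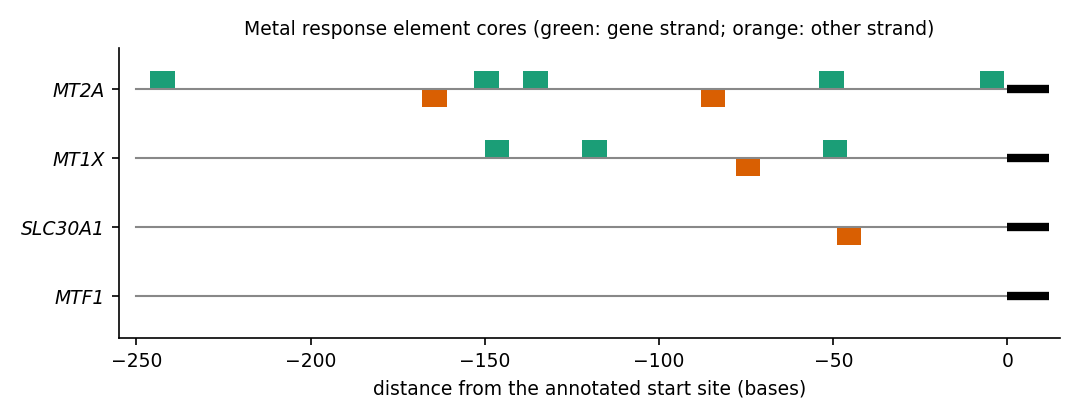
Positions of the metal response element cores in 4 promoters. The horizontal axis is the distance from the annotated start site in bases, each line is 1 gene, green blocks above a line are matches on the gene's strand, orange blocks below it are matches on the other strand, and the black bar marks the start of the gene. MT2A has 7 blocks, MT1X 4, SLC30A1 1 and MTF1 0.

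Depth, libraries that stand apart and the identity of the cells bear on all values below. Each library held 23206414 to 33222162 counts over all genes. The share of counts on mitochondrially encoded genes was 6.26% to 7.17% in control and 13.8% to 17.0% in lurbinectedin. It was 8.42%, 8.43% and 22.6% in teriflunomide replicates 1 to 3, and 14.6%, 24.9% and 13.1% in the combination. Teriflunomide replicate 3 stood apart from its group, with a correlation of log2 levels across genes of 0.972 and 0.974 with the other two, against 0.995 between those. Combination replicate 2 was at 0.988 and 0.985 with the rest of its group, against 0.990 between those, so the values below that move most with these libraries are given with and without them. Of the markers examined, KRT8 was at 196 to 444 CPM and the neuroendocrine gene SYP at 14.1 to 36.2 CPM, while EPCAM, CDH1 and NCAM1 were under 0.1 CPM in every library and INSM1 had 0 counts. YAP1 was at 60.2 to 343 CPM. The summed level of 8 markers of other cell types was 519 to 550 CPM in control and 186 to 221 CPM in lurbinectedin, mostly from the collagen genes COL1A1 and COL1A2. The remaining markers of that list were at most 0.852 CPM in any library. CD3E had 0 counts in all 12 libraries and DCN had 0 counts in 11 of them. The source of the collagen RNA was not tested. In bulk RNA, fewer cells of a type and less RNA per cell cannot be told apart.

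Levels below are CPM, counts scaled to a common TMM-corrected library size, and fold changes are log2 values from edgeR's quasi-likelihood test over 16683 genes, with a Benjamini-Hochberg adjusted p. A gene is called at an adjusted p under 0.05. SLC30A1 and MTF1 were the 2 abundant genes of the 7, and metallothionein RNA was scarce. In control, SLC30A1 was at 11.1 RPKM (the same level per kilobase of exon) and MTF1 at 5.38, while MT2A was at 2.28 and MT1X at 2.02. With lurbinectedin SLC30A1 rose 3.91-fold, MTF1 1.83-fold and MT2A 1.79-fold, and these 3 genes were also called higher in the combination. Of the 5 genes that passed the filter on low counts, MTF1, SLC30A1, MT1F, MT1X and MT2A, 4 were called higher and 1 lower with lurbinectedin, where 71.6% of all genes were called, 36.0% higher and 35.7% lower. The lower gene was MT1F, which passed the filter only through the control and teriflunomide groups, where it is high, so its call is no support for a fall. In the combination 3 were higher and 1 lower against control, where 68.4% of all genes were called, 34.1% higher and 34.4% lower. Against teriflunomide the combination had the same count, 3 higher and 1 lower, where 70.9% were called, 35.2% higher and 35.8% lower. The median log2 fold change of the 5 genes was 0.84 with lurbinectedin and 0.67 in the combination, beside 0.05 and 0.04 over all genes, as a description of the genes that passed the filter. The comparisons with control share the same 3 control libraries.

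**Figure D2:**
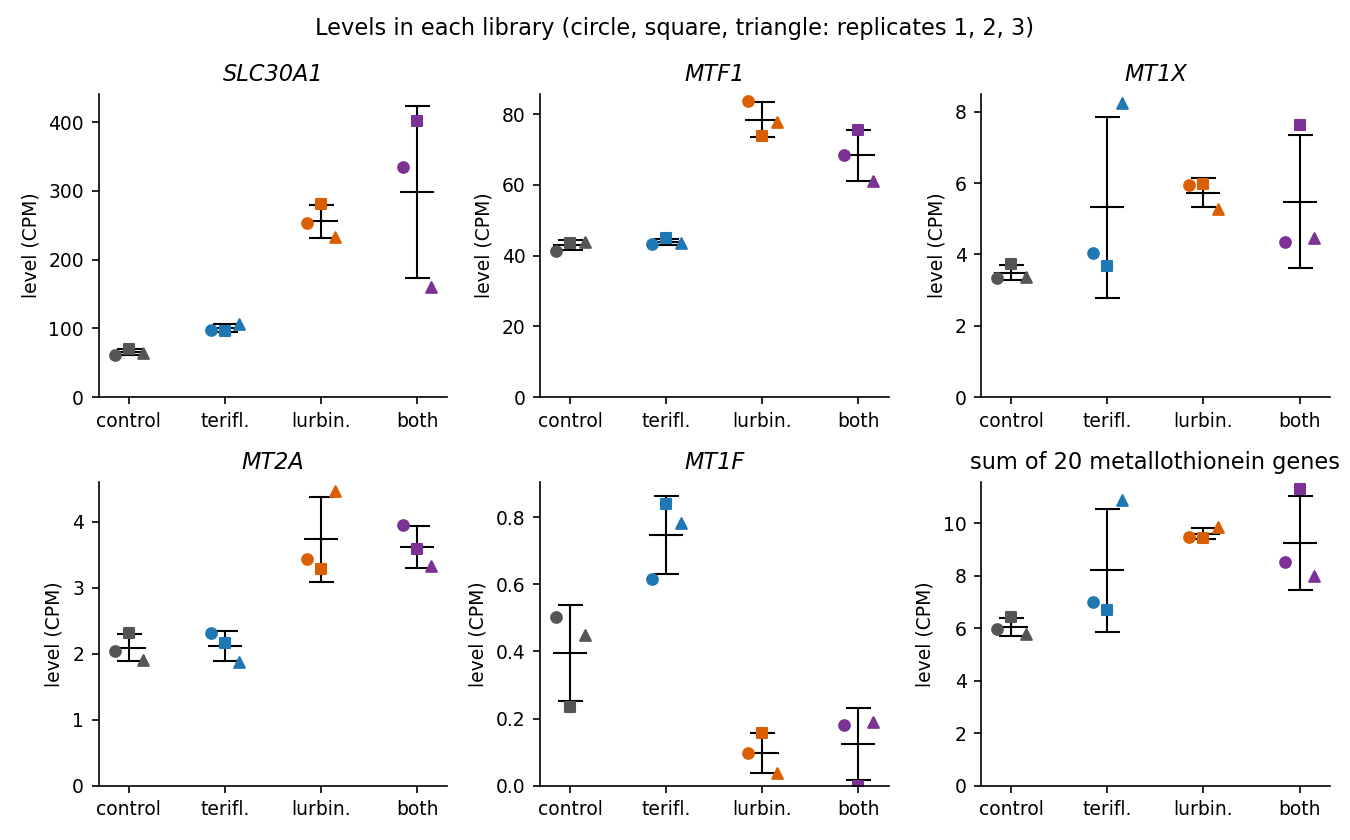
Levels in CPM, on linear vertical axes from 0, of SLC30A1, MTF1, MT1X, MT2A, MT1F and the sum of 20 metallothionein genes in each of the 12 libraries, by group (terifl., teriflunomide; lurbin., lurbinectedin; both, the combination). Points are libraries and bars are the mean ± SD of 3; SLC30A1 lies at 62.0 to 70.6 in control and at 233 to 281 in lurbinectedin, and MT1X is highest in teriflunomide replicate 3, at 8.24.

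MT2A, on chromosome 16 at 56608584 to 56609497 (plus strand, GRCh38), encodes a metallothionein that most human tissues express. Its level was 2.04, 2.31 and 1.91 CPM in control replicates 1 to 3 and 2.32, 2.16 and 1.87 with teriflunomide. It was 3.44, 3.28 and 4.47 CPM with lurbinectedin and 3.95, 3.58 and 3.32 in the combination. Each library with lurbinectedin, alone or combined, was above each library without it, and the teriflunomide and control libraries overlapped. With lurbinectedin the mean rose from 2.09 ± 0.201 CPM (SD, n = 3) to 3.73 ± 0.645 CPM, a log2 change of 0.84 (SE 0.175, 95% interval 0.47 to 1.22, edgeR adjusted p = 6.35e-04). In the combination the change was 0.79 (0.42 to 1.17, edgeR adjusted p = 0.00110), and against teriflunomide it was 0.77 (edgeR adjusted p = 0.00123). With teriflunomide alone it was 0.02, with an interval of -0.36 to 0.41 (edgeR adjusted p = 0.952).

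MT1X, at 56682470 to 56684196 on the plus strand of chromosome 16, supplied 60.2% of the counts on the 20 listed metallothionein genes and pseudogenes. Its level was 3.35, 3.74 and 3.38 CPM in control, and 5.96, 5.98 and 5.27 with lurbinectedin. With teriflunomide it was 4.04, 3.68 and 8.24, and in the combination 4.34, 7.63 and 4.47. The 2 highest values were those of teriflunomide replicate 3 and combination replicate 2, the libraries with mitochondrial shares of 22.6% and 24.9%; the part of that share in the MT1X levels was not tested. The lurbinectedin libraries were all above the controls, with a log2 change of 0.72 (SE 0.290, 95% interval 0.09 to 1.34, edgeR adjusted p = 0.0392). That call was lost when any 1 of the 6 control or lurbinectedin libraries was left out, with changes of 0.67 to 0.77. The call was also lost without TMM scaling, with a change of 0.48 (edgeR adjusted p = 0.0739). In the combination the change of 0.64 was not called (edgeR adjusted p = 0.0622) and was 0.33 without combination replicate 2, although it was called without combination replicate 1 (0.78, edgeR adjusted p = 0.0451), by DESeq2 (0.63, adjusted p = 0.0490), with no filter or a filter at 1 CPM, when only these 2 groups were fitted, and without both teriflunomide replicate 3 and combination replicate 2 (0.33, edgeR adjusted p = 0.0439). With teriflunomide the change was 0.60 (-0.01 to 1.22, edgeR adjusted p = 0.211), and 0.15 without teriflunomide replicate 3. The combination differed from teriflunomide by 0.04 (edgeR adjusted p = 0.905), and by 0.48 without teriflunomide replicate 3 (edgeR adjusted p = 0.0447).

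**Figure D3:**
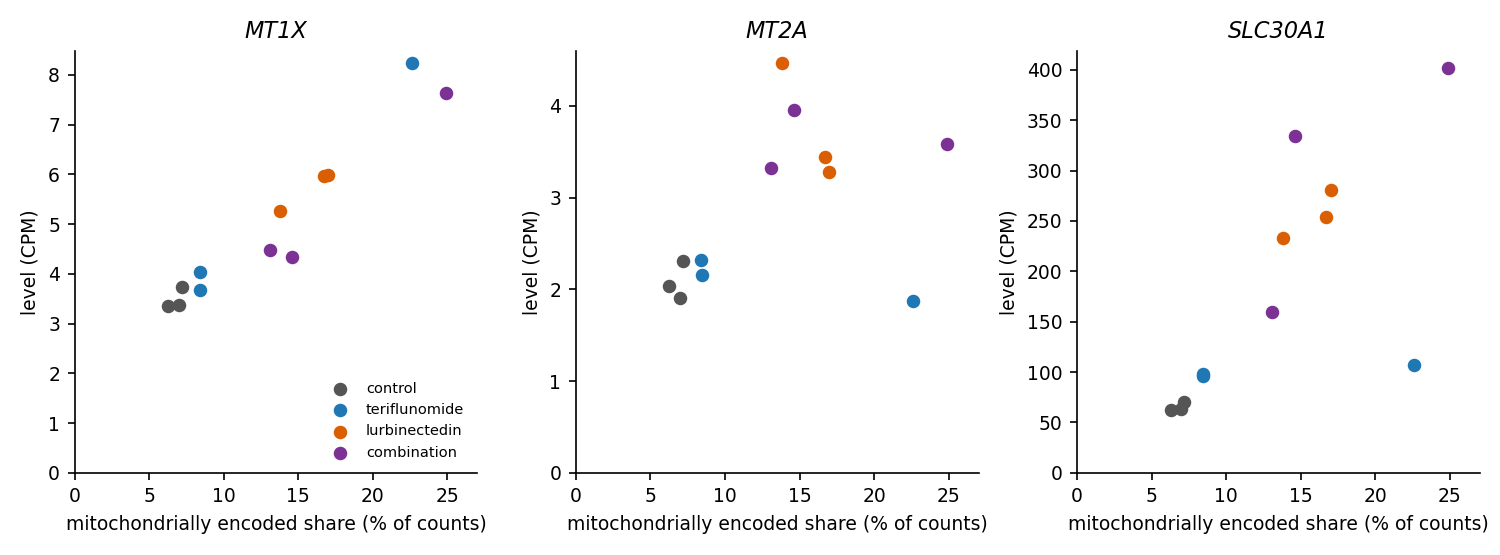
Levels of MT1X, MT2A and SLC30A1 in CPM (vertical axes) against the percentage of a library's counts on mitochondrially encoded genes (horizontal axes), with 1 point per library coloured by group. The teriflunomide library at 22.6% and the combination library at 24.9% have the highest MT1X levels, 8.24 and 7.63, while the teriflunomide library has the lowest MT2A level, 1.87.

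MT1F, at 56657731 to 56660698 on the plus strand of chromosome 16, is a further metallothionein and was near the limit of these libraries. MT1F passed the filter on low counts only through the control and teriflunomide groups, so its changes with lurbinectedin are given as a description. It had 15, 7 and 15 counts in the control libraries and 21, 28 and 23 with teriflunomide. It had 2, 4 and 1 counts with lurbinectedin and 5, 0 and 6 in the combination. The libraries with lurbinectedin were all below those without it. The mean was 0.395 ± 0.142 CPM (SD, n = 3) in control and 0.0965 ± 0.0600 CPM with lurbinectedin, a fitted log2 change of -2.01 (SE 0.637, 95% interval -3.38 to -0.64). In the combination the fitted change was -1.56 (-2.80 to -0.32), and against teriflunomide it was -2.46. The lurbinectedin call was lost without lurbinectedin replicate 3, and the combination call without control replicate 1, control replicate 3 or combination replicate 2. With teriflunomide, the level was 0.616, 0.838 and 0.784 CPM against 0.503, 0.234 and 0.448 in control. These groups did not overlap, but the change of 0.90 was not called (0.00 to 1.81, edgeR adjusted p = 0.203).

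MT1G and MT1E were not tested. MT1G, on the minus strand of chromosome 16 at 56666730 to 56668065, had 2 counts in all, both in control replicate 2. MT1E, on the plus strand at 56625475 to 56627112, had 0 counts in all 12 libraries, which allows up to 0.00866 CPM over the 12 together and 0.0879 to 0.145 CPM in a single library. These limits cover counting error only.

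Of 20 listed metallothionein genes and pseudogenes, 13 had 0 counts in every library. The pseudogene MT1XP1 was not in this list. MT1X (60.2%), MT2A (34.8%) and MT1F (4.52%) took nearly all of the 2807 counts of the list. Beside MT1G, the others with a count were MT1P1 with 9, MT1DP with 2 and MT4 with 1; MT1P1 lies within FANCC on the same strand and MT4 overlaps BBS2 on the other strand. The summed level was 5.97, 6.42 and 5.77 CPM in control, 9.50, 9.46 and 9.85 with lurbinectedin, and 8.51, 11.3 and 7.98 in the combination. With teriflunomide it was 7.01, 6.71 and 10.9, the last being replicate 3, in which MT1X was 75.6% of the sum. The group means were 1.59 times control with lurbinectedin, 1.53 times in the combination and 1.36 times with teriflunomide, all given without a test. They were 1.13 times without teriflunomide replicate 3 and 1.36 times without combination replicate 2.

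Metallothionein genes resemble one another, and how reads that fit several genes were counted is not given in the sources used here. Of all stretches of 50 bases in the transcripts of a gene, 98.8% for MT1F, 97.0% for MT2A, 92.9% for MT1E, 83.5% for MT1G and 81.7% for MT1X occurred in no other gene's transcripts. The stretches of 50 bases that MT1X shared lay in AC026461.1, the pseudogene MT1XP1 and other metallothionein genes and pseudogenes. At 100 bases 88.7% of the MT1X stretches occurred in no other gene's transcripts, and the shared ones all lay in AC026461.1. Another gene overlaps MT1X on the same strand. The split of reads between MT1X and these genes is therefore uncertain. For MT1X and MT2A the exonic length in the count tables equals the span of the gene, 1727 and 914 bases, so counts there include any reads from introns and the RPKM are per that length.

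MTF1, on the minus strand of chromosome 1 at 37809574 to 37859592, encodes the transcription factor that reads free zinc. Its level was 41.3, 43.7 and 43.9 CPM in control and 43.2, 44.9 and 43.5 with teriflunomide. It was 83.7, 73.8 and 77.7 CPM with lurbinectedin and 68.4, 75.6 and 61.2 in the combination. The libraries with and without lurbinectedin formed 2 ranges that did not overlap. With lurbinectedin the mean rose from 42.9 ± 1.44 CPM (SD, n = 3) to 78.4 ± 4.99 CPM, a log2 change of 0.87 (SE 0.103, 95% interval 0.65 to 1.09, edgeR adjusted p = 3.76e-06). In the combination the change was 0.67 (0.45 to 0.89, edgeR adjusted p = 5.10e-05), and against teriflunomide it was 0.64 (edgeR adjusted p = 7.10e-05). With teriflunomide it was 0.03 (-0.19 to 0.25, edgeR adjusted p = 0.880). Another gene overlaps MTF1 on the other strand, and whether the counting used strand is not given in the sources used here. The MTF1 span of 50019 bases is the longest of the 7 genes.

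Of 4 genes listed as partners of MTF1 in transcription, 3 fell and 0 rose with lurbinectedin. Of all genes, 71.6% were called there, 36.0% higher and 35.7% lower. The same counts were found in the combination, where 68.4% were called, 34.1% higher and 34.4% lower. The 3 of 4 called is close to the share called in either direction, but all 3 fell. Whether so few genes differ from the shares called lower was not tested. With teriflunomide 0 were called. CREBBP, the acetyltransferase CBP, fell from 154 ± 9.75 CPM (SD, n = 3) to 47.1 ± 0.855 CPM, a log2 change of -1.71 (SE 0.119, edgeR adjusted p = 1.87e-08), and changed by -1.39 in the combination (edgeR adjusted p = 1.71e-07). CREBBP spans 155660 bases, and the part of gene size in its change was not tested.

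SLC30A1, on the minus strand of chromosome 1 at 211571568 to 211579161, had the largest rise of the 5 genes tested. Its level was 62.0, 70.6 and 63.6 CPM in control and 97.8, 96.0 and 107 with teriflunomide. It was 254, 281 and 233 CPM with lurbinectedin and 334, 402 and 160 in the combination. Every treated library was above every control library, and the combination libraries spread around those of lurbinectedin, with replicate 3 below them and the other two above. With lurbinectedin the mean rose from 65.4 ± 4.60 CPM (SD, n = 3) to 256 ± 24.0 CPM, a log2 change of 1.97 (SE 0.239, 95% interval 1.45 to 2.48, edgeR adjusted p = 4.96e-06). In the combination the mean was 299 ± 125 CPM (SD, n = 3), a change of 2.19 or 4.56-fold (1.67 to 2.71, edgeR adjusted p = 2.22e-06), and 1.91 without combination replicate 2 (edgeR adjusted p = 1.10e-05). Against teriflunomide the combination was higher by 1.57 (edgeR adjusted p = 3.91e-05). Of all genes tested, 7.06% had a larger log2 fold change than SLC30A1 with lurbinectedin and 5.14% in the combination.

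With teriflunomide alone, SLC30A1 was at 100 ± 5.98 CPM (SD, n = 3), 1.53-fold above control and with no overlap between the groups. The log2 change of 0.62 had a 95% interval of 0.12 to 1.12 and was not called over all genes (edgeR adjusted p = 0.126). The call changed with the fit: without a filter on low counts the change was 0.59 (edgeR adjusted p = 5.74e-04), and in a fit of only these 2 groups 0.59 (edgeR adjusted p = 0.0339), while DESeq2 gave 0.61 (adjusted p = 0.0859). With edgeR, 0 of the 5 genes were called with teriflunomide, where 6.01% of all genes were called, 3.88% higher and 2.13% lower. Unadjusted, 1 of the 5, SLC30A1, had a p under 0.05, and DESeq2 called 0. Over all 16683 genes tested, 4143 had an unadjusted p under 0.05 and DESeq2 called 1890.

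**Figure D4:**
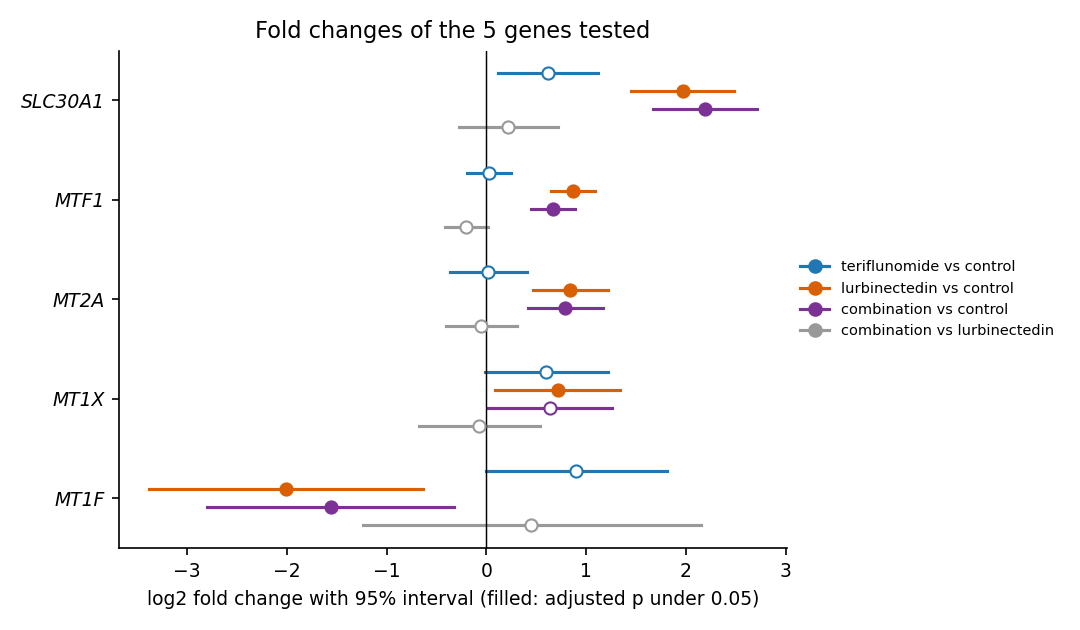
Log2 fold changes (horizontal axis) of the 5 tested genes in 4 comparisons, with 95% intervals as bars; filled points have an edgeR adjusted p under 0.05. SLC30A1 lies at 1.97 with lurbinectedin and 2.19 in the combination, MT1F at -2.01 and -1.56, and the grey intervals of the combination against lurbinectedin all include 0.

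Adding teriflunomide to lurbinectedin gave no called difference in these genes. The combination differed from lurbinectedin by a log2 change of 0.22 for SLC30A1 (95% interval -0.27 to 0.72, edgeR adjusted p = 0.662), and by 0.52 without combination replicate 3 (edgeR adjusted p = 0.0869) but -0.05 without combination replicate 2. It differed by -0.20 for MTF1 (-0.42 to 0.02, edgeR adjusted p = 0.367), and MTF1 was called lower, by 0.27 on the log2 scale, without both teriflunomide replicate 3 and combination replicate 2 (edgeR adjusted p = 0.0226). The intervals were -0.41 to 0.31 for MT2A, -0.68 to 0.54 for MT1X and -1.24 to 2.15 for MT1F, the last too wide to place a rise or a fall. Here edgeR called 0 of the 5 genes and 0% of all genes, with 0 of the 5 at an unadjusted p under 0.05 and 0 called by DESeq2; over all genes, 2599 had an unadjusted p under 0.05 and DESeq2 called 584. The interaction, the effect of teriflunomide with lurbinectedin minus its effect without it, was called for 0 of the 5 and 0.258% of all genes, 0.0360% higher and 0.222% lower, with 0 of the 5 at an unadjusted p under 0.05 and 0 called by DESeq2. Over all genes, 1726 had an unadjusted p under 0.05 in the interaction and DESeq2 called 256. The interaction was -0.39 for SLC30A1 (-1.10 to 0.31, edgeR adjusted p = 0.747) and -0.23 for MTF1 (edgeR adjusted p = 0.632).

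The other zinc transporter genes moved in both directions. Of 23 listed genes of the SLC30 and SLC39 families beside SLC30A1, 18 were tested. With lurbinectedin 5 rose, 8 fell and 5 were not called, where 71.6% of all genes were called (36.0% higher and 35.7% lower), and the median log2 change was -0.22, beside 0.05 over all genes. In the combination 4 rose, 10 fell and 4 were not called, with a median of -0.33, beside 0.04. Of all genes, 68.4% were called there (34.1% higher and 34.4% lower). The numbers called in either direction were thus near the share over all genes, with more falls than rises. The genes that fell include SLC39A11, which passed the filter on low counts only through the control and teriflunomide groups. Among the exporters and vesicle loaders of the SLC30 family, 1 of the 7 tested rose with lurbinectedin and 5 fell; among the SLC39 importers, 4 of the 11 tested rose and 3 fell.

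In the SLC30 family SLC30A8, which loads zinc into secretory granules, fell with lurbinectedin from 10.4 ± 0.809 CPM (SD, n = 3) to 0.449 ± 0.160 CPM, a log2 change of -4.56 (SE 0.248, edgeR adjusted p = 1.73e-09). SLC30A9, which acts on mitochondrial zinc, fell from a mean of 135 CPM to 28.1 CPM (log2 change -2.27, edgeR adjusted p = 2.66e-08). SLC30A4 fell by 1.23 on the log2 scale (edgeR adjusted p = 1.13e-06). In the combination SLC30A8 changed by -4.35 and SLC30A9 by -1.80, and SLC30A3, a loader of synaptic vesicles, rose from 1.31 ± 0.165 to 3.15 ± 1.13 CPM (log2 change 1.27, edgeR adjusted p = 6.34e-04). SLC30A1 and SLC30A3 were thus the family's genes that rose in the combination.

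In the SLC39 family SLC39A11 was at 5.96 ± 0.227 CPM (SD, n = 3) in control and 0.135 ± 0.0525 CPM with lurbinectedin, a fitted log2 change of -5.41 (SE 0.252). It had 3, 2 and 5 counts with lurbinectedin and 2, 4 and 3 in the combination. SLC39A11 passed the filter on low counts only through the control and teriflunomide groups, so its changes are given as a description. SLC39A10, a plasma membrane importer, fell by 1.39 on the log2 scale (edgeR adjusted p = 2.80e-06). SLC39A7, which releases zinc from the endoplasmic reticulum, rose from 80.0 ± 2.96 to 190 ± 10.5 CPM (log2 change 1.25, edgeR adjusted p = 4.24e-07); it overlaps RXRB on the other strand. SLC39A13, a transporter of the secretory pathway, rose by 1.11 (edgeR adjusted p = 0.00145). In the combination these 4 genes changed by -5.72, -1.25, 1.20 and 1.06. With teriflunomide 1 of the 18 was called, where 6.01% of all genes were called: SLC39A1, an importer, fell by 1.39 on the log2 scale (SE 0.339, edgeR adjusted p = 0.0303). SLC39A1 overlaps another gene on the same strand and CREB3L4 on the other strand, so its counts may mix reads. It was at 1.71, 2.37 and 1.97 CPM in control and at 0.850, 1.14 and 0.273 with teriflunomide, the lowest value being replicate 3. Without that library the change was -1.02 (edgeR adjusted p = 0.0187), and the call was lost when any 1 of the 3 control libraries was left out, with changes of -1.50 to -1.26. The call was also lost without TMM scaling (edgeR adjusted p = 0.0945) and when only these 2 groups were fitted (edgeR adjusted p = 0.116).

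The order of these fold changes followed gene size. Across the 18 transporter genes, the Spearman correlation of the log2 change with the genomic span was -0.78 with lurbinectedin and -0.82 in the combination, beside -0.57 and -0.55 across all tested genes; genes share libraries and are not independent, so these are descriptions. SLC39A11 spans 446764 bases and SLC30A8 226442, whereas SLC39A7 spans 3995 and SLC30A1 spans 7594. MT2A, MT1X and MT1F are shorter than all of these. MT2A and MT1X were called higher with lurbinectedin, while MT1F, at 2968 bases, had a fitted change of -2.01, given as a description. MTF1, at 50019 bases, rose. The part of gene size in the change of any one gene was not tested.

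**Figure D5:**
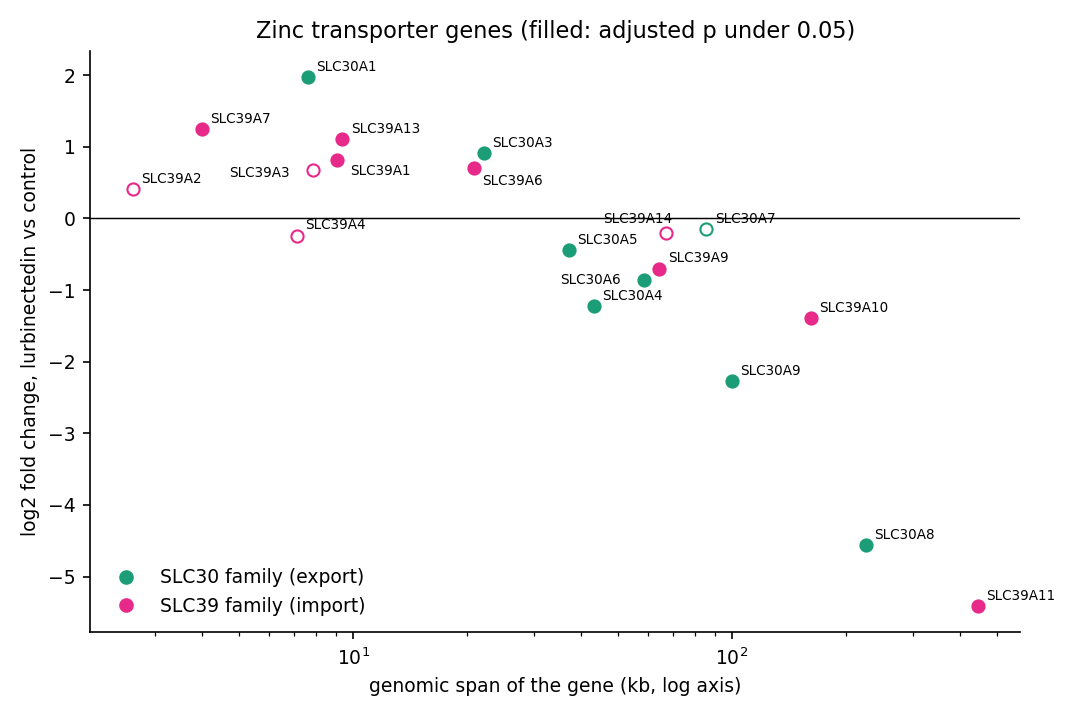
Log2 fold change with lurbinectedin against control (vertical axis) of the 19 tested zinc transporter genes by genomic span in kb (horizontal log axis), with the SLC30 family in green and the SLC39 family in pink; filled points have an edgeR adjusted p under 0.05. SLC30A1 is the highest point, at 1.97, and SLC39A11, the gene with the longest span, the lowest, at -5.41.

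The genes most alike in pattern were found among 10433 genes by Pearson's r of log2 levels over the 12 libraries, in which points share their treatment group. SLC30A1 was most like TAF13 (0.996), DNAJB9 (0.993) and TMEM64 (0.990), and 1016 genes had an r over 0.9 with it. MTF1 was most like TIMM22 (0.995), CCND1 (0.995) and ZNF286A (0.993), with 1931 genes over 0.9. The summed metallothionein level was most like UQCRB (0.985), SRP14 (0.984) and the mitochondrially encoded MT-ND2 (0.978), with 172 genes over 0.9.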

How the data were processed

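The authors deposited raw read counts per gene for each of 12 libraries, with gene positions and exonic lengths, per the file headers. The submitters' processing notes name fastp 0.23.2, STAR 2.7.9, featureCounts and hg38; use of strand and multi-mapping reads is not given in the sources used here. Gene positions matched GENCODE 29 for all 37318 identifiers of the same version. Genes were filtered with filterByExpr (16683 kept), scaled by TMM and fitted in edgeR 4.0.16 (R 4.3.3) with 1 mean per group over all 12 libraries; 6 contrasts were tested and called at an adjusted p under 0.05. The fit was tested on simulated data. No replicate libraries were duplicates. Genes and lists were chosen with earlier results of these data known. From each list, at most 4 called genes per contrast with control were named, by smallest adjusted p, with at least a 2-fold change and 1 CPM in the higher group; the genes most alike were the 3 with the highest r and at least 5 CPM. Alternatives changed the scaling, filter, test (DESeq2 1.42.0), threshold, samples fitted, replicate block and libraries; 2 were added after seeing the data.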

Additional observations from a re-analysis of the deposited data

How the results depend on the processing

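Of the fold changes of the 5 tested genes under the alternatives, 448 kept their direction and side of the threshold, 16 lost a call, 10 gained one and 22 changed sign. With teriflunomide 1 of the 5 genes was called without a filter and 1 when only the groups compared were fitted, against 0. Over all genes, 1800 of 35577 and 283 of 15502 were called in these 2 fits. With lurbinectedin 3 of the 5 were called at an adjusted p under 0.01 and 3 to 4 with any 1 library left out, against 5. Over all genes, 10244 of 16683 were called at an adjusted p under 0.01. With 1 library left out, 11118 to 11285 were called, of 17052 to 17098 tested. Between combination and lurbinectedin 1 was called without both teriflunomide replicate 3 and combination replicate 2, an alternative chosen after seeing the data, against 0. That alternative called 3640 of 16945 genes. Sign changes were all in changes that were not called. Without TMM scaling MT2A and MTF1 changed by -0.05 each with teriflunomide, MT1X by -0.03 between combination and teriflunomide, and MT2A by 0.01 between combination and lurbinectedin and 0.06 in the interaction. MT2A changed by 0.00 with teriflunomide both without a filter and when only the groups compared were fitted. With 1 library left out, MT2A ranged from -0.05 to 0.10 with teriflunomide, from -0.13 to 0.11 between combination and lurbinectedin and from -0.15 to 0.09 in the interaction. MT1X ranged from -0.26 to 0.48 between combination and teriflunomide and from -0.38 to 0.08 between combination and lurbinectedin, SLC30A1 from -0.05 to 0.52 between combination and lurbinectedin, and MT1F from -0.88 to 0.14 in the interaction. Without both libraries that stood apart, SLC30A1 changed by -0.05 between combination and lurbinectedin and MT1F by 0.08 in the interaction. Over all genes, 1002 were called with teriflunomide (216 to 2757 under the alternatives), 0 between combination and lurbinectedin (0 to 3640) and 43 in the interaction (2 to 1839). Without TMM scaling the median of all genes with lurbinectedin moved from 0.05 to -0.18 and the calls from 5999 higher and 5954 lower to 4313 and 6699; SLC30A1, MTF1 and MT2A were then still called higher, by 1.73, 0.63 and 0.61. In the combination that median moved from 0.04 to -0.13. Same-numbered libraries did not deviate together (correlations from -0.51 to 0.21 over 18 pairs, 4 above 0.1). Over 36 different-numbered pairs they ran from -0.31 to 0.51, 12 above 0.1. The numbers show no sign of pairing. The extreme values lie between the groups with a library that stood apart, so this check cannot settle pairing. With a replicate block MT1X with lurbinectedin stayed at 0.72 but lost its call (edgeR adjusted p = 0.0520), leaving 4 of the 5 called. Over all genes, 11591 of 16683 were then called with lurbinectedin and 415 with teriflunomide. SLC39A1 with teriflunomide lost its call at -1.40 with the block (edgeR adjusted p = 0.0731). Depth limits MT1F, MT1G and MT1E, which had 127, 2 and 0 counts in all.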

Other observations

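Copper handling, a function that metallothioneins share with dedicated carriers, moved both ways. Of 9 listed genes 4 rose and 4 fell with lurbinectedin, with the same counts in the combination and 0 called with teriflunomide, where 71.6%, 68.4% and 6.01% of all genes were called; the median log2 change with lurbinectedin was 0.01, beside 0.05 over all genes. COMMD1, which takes part in copper export, fell from 12.7 ± 0.213 CPM (SD, n = 3) to 0.498 ± 0.212 CPM (log2 change -4.65, edgeR adjusted p = 5.67e-10). The copper-exporting ATPase genes ATP7A and ATP7B changed by -2.95 (edgeR adjusted p = 3.98e-08) and -2.61 (edgeR adjusted p = 1.61e-07). CCS, the copper chaperone of superoxide dismutase, rose from 8.19 ± 0.546 to 24.9 ± 1.91 CPM (log2 change 1.60, edgeR adjusted p = 3.15e-06). ATP7A overlaps PGK1 on the same strand, so its counts may mix reads. COMMD1 spans 258524 bases, ATP7A 139740 and ATP7B 81690, whereas CCS spans 12867. The part of gene size in these changes was not tested.

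Of 9 listed genes of the glucocorticoid receptor and its targets, a second input to metallothionein promoters, 8 were tested; 4 rose and 4 fell with lurbinectedin, 4 rose and 3 fell in the combination, and 0 were called with teriflunomide. These shares stand beside 71.6%, 68.4% and 6.01% of all genes. The median log2 change with lurbinectedin was 0.68, beside 0.05 over all genes, over genes that went both ways. SGK1, a kinase of ion transport, rose from 1.63 ± 0.197 CPM (SD, n = 3) to 49.5 ± 2.51 CPM (log2 change 4.93, edgeR adjusted p = 1.67e-09). The phosphatase gene DUSP1 rose by 2.44 (edgeR adjusted p = 4.79e-09), the clock gene PER1 by 2.30 (edgeR adjusted p = 1.42e-09) and NFKBIA, the NF-kappaB inhibitor, by 1.89 (edgeR adjusted p = 1.12e-08). In the combination these 4 genes changed by 4.81, 2.45, 1.89 and 1.63. The 4 that fell with lurbinectedin, named after their values were seen, included the receptor gene NR3C1 (log2 change -1.19, edgeR adjusted p = 4.70e-06) and its target FKBP5 (-1.30, edgeR adjusted p = 8.07e-07). The others were ZBTB16 at -5.29 and KLF9 at -0.53. ZBTB16 had 0, 1 and 3 counts with lurbinectedin and 8, 6 and 5 in the combination. It passed the filter on low counts only through the control and teriflunomide groups, so its change is given as a description.

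Of 10 neighbours of the metallothionein cluster on chromosome 16, 8 were tested, and 2 rose and 6 fell both with lurbinectedin and in the combination. The falls include NLRC5, which passed the filter on low counts only through the control and teriflunomide groups, so its call is no support for a fall. NLRC5 had 3, 10 and 6 counts with lurbinectedin and 4, 14 and 10 in the combination. Of all genes, 71.6% were called with lurbinectedin, 36.0% higher and 35.7% lower. In the combination 68.4% were called, 34.1% higher and 34.4% lower. The median log2 change was -0.74 with lurbinectedin and -0.61 in the combination, beside 0.05 and 0.04 over all genes. GNAO1, a G protein subunit gene near the cluster, changed by -4.78 with lurbinectedin (edgeR adjusted p = 9.81e-09) and the nucleoporin gene NUP93 by -1.62 (edgeR adjusted p = 6.17e-07), whereas OGFOD1 rose by 1.22 (edgeR adjusted p = 2.96e-07). OGFOD1 overlaps NUDT21 and BBS2 on the other strand, which changed by -0.79 and -0.69 with lurbinectedin. Whether the counting used strand is not given in the sources used here. GNAO1 spans 166055 bases and OGFOD1 27584.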
